A study of Homo sapiens with 24 samples.

Results

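PTPN6, the gene of the tyrosine phosphatase SHP-1, was knocked down in CD33 knockout human macrophages, and the effect was read across the transcriptome. The comparison set 5 libraries of CD33 knockout cells carrying a PTPN6 hairpin (CD33KO_shPTPN6, replicates 1, 3, 4, 5 and 6) against 6 libraries of CD33 knockout cells carrying the empty vector (CD33KO_shCTRL, replicates 1 to 6). These are 11 of the 23 libraries of the count table, and CD33KO_shPTPN6 replicate 2 was not analysed here. The cells were THP1, a monocytic leukaemia line that becomes adherent and macrophage-like with the phorbol ester PMA. All 4 groups of the study, WT_shCTRL and WT_shPTPN6 (6 wild-type libraries each) and both knockout groups, had been exposed for 24 h to pLKO.1 lentivirus from HEK-293FT cells, rested for 48 h, selected with puromycin at 1 µg/ml, given 10 ng/ml PMA for 48 h and kept a further 48 h without PMA. A single hairpin was used, and its control vector held no hairpin. The labels do not say whether the knockout line is 1 clone or whether the libraries of a group came from separate cultures, so the p-values measure only the spread between these libraries. The library kit took 100 ng of total RNA and reads polyadenylated transcripts at the 3′ end.

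SHP-1 removes phosphate from tyrosines of receptors, kinases and adaptors. CD33 (Siglec-3) is a sialic-acid-binding receptor of myeloid cells whose cytoplasmic tail carries an inhibitory motif, the ITIM. Src-family kinases such as LYN phosphorylate ITIMs, SHP-1 docks there, and signals from receptors that use the activating motif (ITAM), cytokine receptors and growth factor receptors are damped. Many other receptors on macrophages carry ITIMs, among them SIRPA, PECAM1, LAIR1 and the LILRB proteins, so SHP-1 has docking partners in a cell without CD33. The knockdown within the knockout asks what the phosphatase does to the transcriptome when that receptor is missing.

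The hairpin is shown because the whole comparison rests on it. Its 21-base target, as the labels give it, matched transcripts of 1 gene in the GRCh38 annotation, PTPN6 (chr12:6946468-6961316, plus strand), and lies in coding sequence at chr12:6959963-6959983, in exon 12 of 16 of the longer coding transcripts.
shPTPN6 target: cgacatgctcatggagaacat
PTPN6 fell in the cells given this hairpin. Levels are counts per 1000000 counts (CPM), scaled between libraries by the TMM method. For the 6 control libraries the lowest, median and highest value are given in that order, and for the 5 knockdown libraries all values in the order of replicates 1, 3, 4, 5 and 6. Where a single pair of CPM values is given it is the mean of each group, control first, and a value in brackets without a unit is a log2 fold change or, beside a comparison with wild-type cells, the interaction (knockout minus wild type). PTPN6 was at 32.6, 37.5 and 44.1 CPM in the control libraries and at 4.94, 7.31, 7.63, 11.9 and 5.32 CPM in the knockdown libraries. The groups did not overlap, and the mean went from 37.7 ± 3.88 (SD, n = 6) to 7.41 ± 2.75 CPM (SD, n = 5), a level 80.4% lower. The log2 fold change was -2.37 ± 0.17 (the value after ± is the SE; edgeR adjusted p = 2.07e-24), and a two-sided exact permutation test gave p = 0.00216, the smallest that 6 against 5 libraries allow. In wild-type cells the same hairpin gave -2.08, and the test of the difference between the lines, the interaction, gave -0.29 ± 0.22 (edgeR adjusted p = 0.355).

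CD33 itself was at 16.2, 20.8 and 22.5 CPM in the control libraries and at 23.7, 23.8, 15.7, 25.3 and 29 CPM with the knockdown. The groups overlapped, and the change of 0.22 ± 0.13 did not pass the test (edgeR adjusted p = 0.185, exact permutation p = 0.223); without knockdown replicate 4, the library lowest in CD33, it was 0.34 and passed (edgeR adjusted p = 0.0381). A read at the 3′ end of the transcript does not show whether the edited part is missing. The level was below that of wild-type cells, where CD33 went from 45.5 to 88.8 CPM with the knockdown, and the response differed between the lines (-0.75 ± 0.15, edgeR adjusted p = 3.32e-05).

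**Figure D1:**
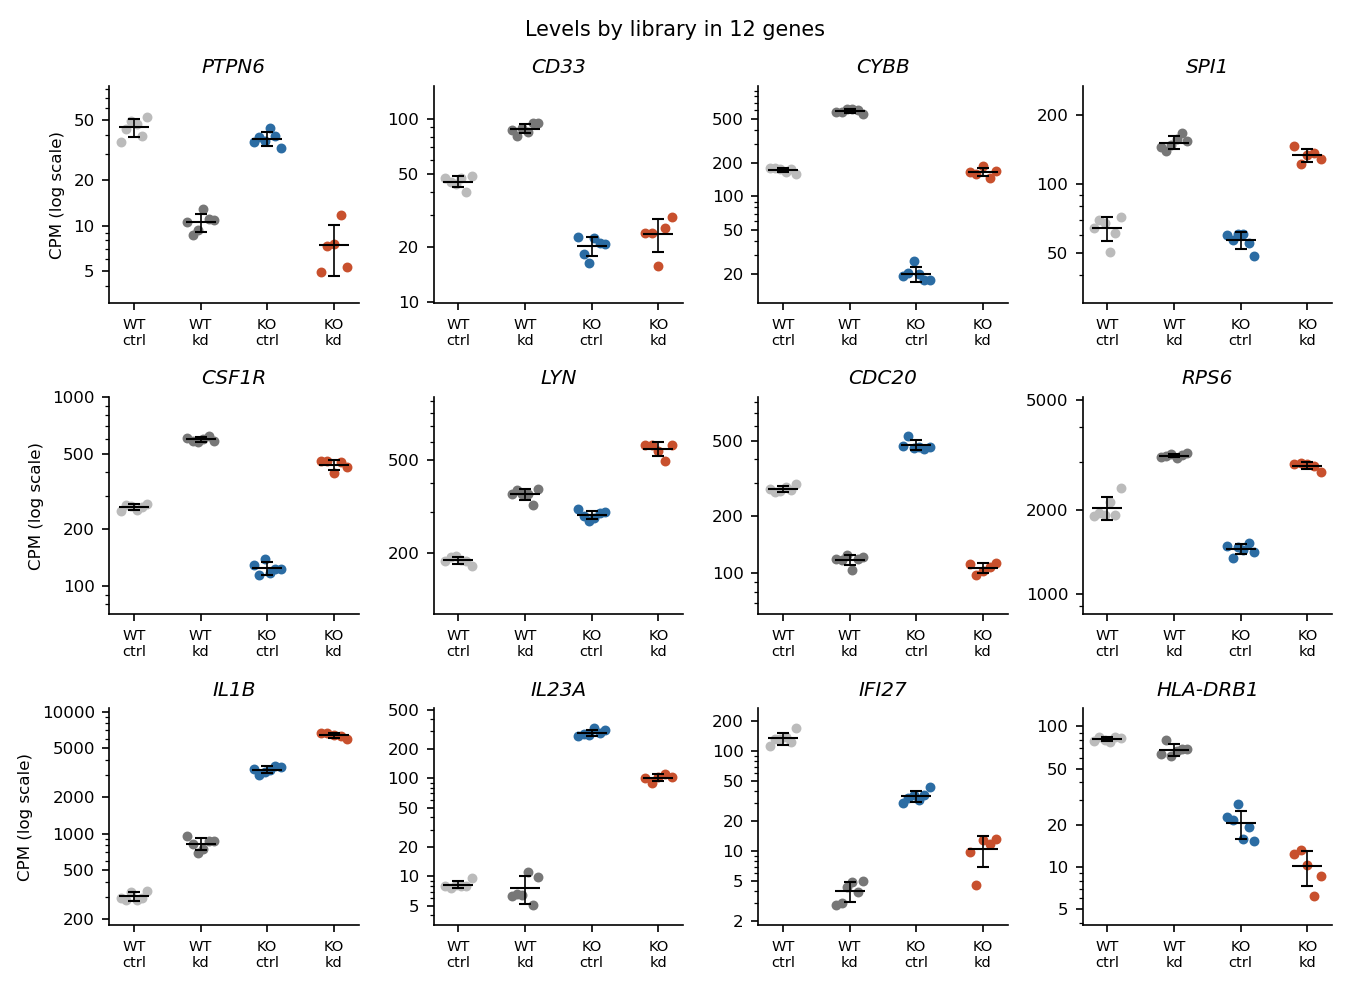
Level of 12 genes in every library of the 4 groups, as TMM-scaled CPM on a log axis. Points are libraries, the long bar is the mean and the whiskers are ± 1 SD (n = 6, and 5 for the knockout with knockdown); WT is wild type, KO is CD33 knockout, ctrl is the empty vector and kd the PTPN6 hairpin. PTPN6 sat between 4.94 and 11.9 CPM in the knockout libraries with the hairpin and between 32.6 and 44.1 CPM in those without it.

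The control libraries held 2048161 to 3749258 counts and the knockdown libraries 2024032 to 2581042. Mitochondrial transcripts took 6.53% to 7.13% and 6.36% to 6.55% of the counts. Of 14 macrophage and monocyte markers, 13 passed the filter on low counts and 11 were at 5 CPM or more in every library of both groups; LYZ, CD163 and MRC1 were low. Control replicate 2 stood apart from its group: 91 of 9261 genes lay at least 2-fold from the median of the other control libraries. In the other 10 libraries 16 to 38 genes lay that far from their own group. In this library VGF, a secreted neuropeptide precursor, was at 90.8 CPM against 3.85 to 10.6 CPM in the other controls. The chemokine CCL20 was at 779 CPM there against 2000 to 2566 CPM. The immunoglobulin light chain IGKC, a transcript of B-lineage cells, was at 26.4, 34.5 and 160.1 CPM in the controls and 46.4, 102, 50.3, 59.8 and 18 CPM with the knockdown, with control replicates 2 and 3 and knockdown replicate 3 highest. Where a result was followed with these libraries left out, any move is given beside the values it touches.

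Of 13098 genes tested, 5512 (42.1%) differed between the knockdown and control libraries at an edgeR adjusted p under 0.05. The split was even by number: 2685 genes (20.5%) rose and 2827 (21.6%) fell. It was uneven by size, since 352 genes (2.69%) rose and 795 (6.07%) fell by at least 2-fold, and the median log2 change was 0.48 among the higher genes and -0.66 among the lower ones. The median over all tested genes was -0.01. The libraries of the 2 groups did not overlap in 3171 of the tested genes (24.2%), counted whether called or not. Scaled by library totals alone, which lowers the median of all genes by 0.09, 5622 genes passed and 35.6% of them were higher, against 48.7% with TMM scaling. The first principal component over the 11 knockout libraries held 45% of their variance. In the lists below, counts of called members are to be read against the shares over all tested genes. These were 20.5% higher and 21.6% lower in the knockout comparison and 30.2% and 30.4% in wild-type cells. For the interaction they were 14.5% and 13.9%.

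**Figure D2:**
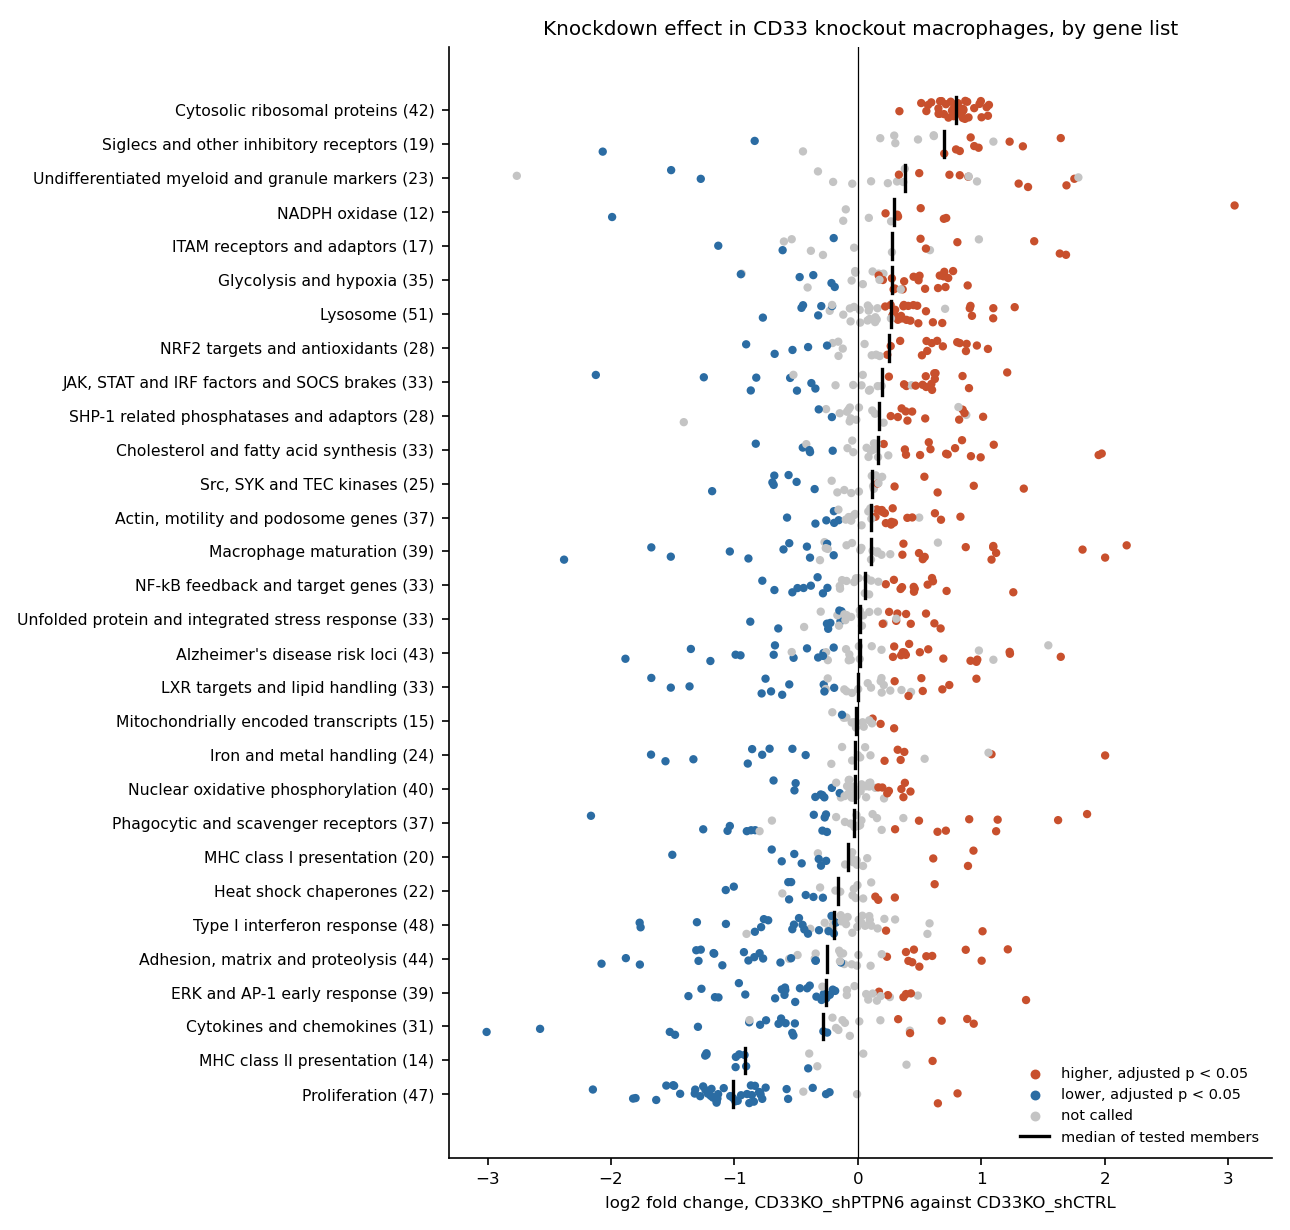
Log2 fold change of every tested member of 30 gene lists, CD33KO_shPTPN6 against CD33KO_shCTRL; the number of tested members follows each name. Red points rose, blue points fell at an edgeR adjusted p under 0.05, grey points were not called, and black bars are medians of the tested members. All 42 ribosomal protein genes lie to the right of 0 and 43 of the 47 proliferation genes are called to the left.

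Proliferation genes had the lowest median of the 30 lists plotted. They fell in 43 of 47 tested members (49 in the list) against 21.6% of all genes, 24 of them by at least 2-fold against 6.07%, with a median of -1.01 against -0.01 over all genes. PMA stops most THP1 cells from dividing, and the transcripts listed serve DNA replication, spindle assembly and mitotic exit. CDC20, the activator of the anaphase-promoting complex, was at 454, 465 and 532 CPM in the control libraries and 112, 97.8, 103, 108 and 114 CPM with the knockdown. Every knockdown library lay far below every control library, and the change was -2.15 ± 0.06 (edgeR adjusted p = 1.51e-57). TOP2A, the topoisomerase that untangles replicated chromosomes, was at 268, 302 and 327 CPM and then at 106, 116, 112, 94.3 and 104 CPM, again without overlap, a change of -1.49 ± 0.06. BIRC5 (survivin), a subunit of the chromosomal passenger complex, went from 59.9, 65.1 and 70.0 CPM to 24.2, 14.6, 18.9, 19.6 and 15.5 CPM, -1.82 ± 0.12. The other called members ran from CENPA, a centromeric histone (-1.80), through the proliferation marker MKI67 (98.6 to 45 CPM, -1.13) and the cyclin-dependent kinase CDK1 (79.4 to 35.9 CPM, -1.14), to MCM7, a subunit of the replicative helicase (-0.23). The libraries of 41 of the 47 tested members did not overlap between the groups, against 24.2% of all genes.

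Exceptions in the list were few. The D-type cyclins, which act in G1 and are induced by growth factor signals, rose: CCND1 was at 576, 598 and 623 CPM and then at 1021, 1069, 1038, 1079.8 and 1048 CPM (0.81 ± 0.05), and CCND3 went from 228 to 358 CPM (0.65). TUBB (-0.01), a tubulin with close copies in the genome, and UHRF1 (-0.44), a factor that maintains DNA methylation, were not called. In this bulk RNA, fewer cells of a type and less RNA per cell cannot be told apart. The fall was steeper in the knockout than in the wild type in 35 of the 47 members by the interaction test (13.9% of all genes were lower in it), and the median in wild-type cells was -0.28, where 27 members fell (30.4% of all genes fell there and 30.2% rose). CDC20 differed by -0.90 ± 0.08 between the lines, TOP2A by -0.90 ± 0.08 and BIRC5 by -1.30 ± 0.14, while CCND1 did not differ past the threshold (0.16 ± 0.06, edgeR adjusted p = 0.0581).

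The promoters of CDC20 and TOP2A are printed because these genes had the smallest adjusted p of the proliferation list, and such promoters are known for 2 short elements: the CHR, TTTGAA, read by the DREAM complex, and the CCAAT box, CCAAT, read by NF-Y. The sequences are RefSeq's for GRCh38.p14, 250 bases before to 50 after the start site, 5′ to 3′ on the gene's strand; capitals mark both elements on either strand.
CDC20, chr1:43358731-43359030, plus strand: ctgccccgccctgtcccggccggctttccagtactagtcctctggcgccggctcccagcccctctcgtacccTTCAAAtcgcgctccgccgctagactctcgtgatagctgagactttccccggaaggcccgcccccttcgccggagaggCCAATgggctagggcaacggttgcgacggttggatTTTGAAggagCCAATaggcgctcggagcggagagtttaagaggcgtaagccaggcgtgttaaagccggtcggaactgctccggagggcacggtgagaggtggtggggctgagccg
TOP2A, chr17:40417847-40418146, minus strand: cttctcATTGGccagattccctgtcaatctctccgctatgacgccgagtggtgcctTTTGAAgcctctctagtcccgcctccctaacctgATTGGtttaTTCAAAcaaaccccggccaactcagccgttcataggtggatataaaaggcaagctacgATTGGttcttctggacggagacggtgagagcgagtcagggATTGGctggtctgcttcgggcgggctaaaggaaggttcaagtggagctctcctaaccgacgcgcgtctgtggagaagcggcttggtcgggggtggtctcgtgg
CDC20 held 2 CHR and 2 CCAAT matches, and TOP2A held 2 and 4. Among the 38 tested proliferation genes with a promoter in the table, 14 (36.84%) held TTTGAA and 30 (78.95%) held CCAAT, against 9.9% and 36.96% of the 9962 tested genes with a promoter. No match of one motif overlapped a match of the other in these promoters. A match describes the letters only.

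Cytosolic ribosomal protein genes moved the other way, as 1 block. All 42 members of the list were tested, all 42 rose (20.5% of all genes did), and the median was 0.80. RPS6, the ribosomal protein phosphorylated downstream of mTOR, was at 1352, 1459.7 and 1529.6 CPM in the controls and 2944, 2974, 2935, 2882 and 2762 CPM with the knockdown. Each knockdown library was above each control library (1.00 ± 0.05, edgeR adjusted p = 3.63e-37). Changes over the list ran from RPSA (0.34) to RPL28 (1.06). RPS19 rose too (1017 to 2015 CPM, 0.99). RPL27A, RPL37, RPL37A and RPS14 were among the 6 genes that gained most in CPM, with IL1B and ITGB2; RPL27A went from 2629 ± 200.1 to 5301 ± 459 CPM. The share of all counts on ribosomal protein genes was 4.46% to 4.73% in the controls and 7.37% to 7.79% with the knockdown, so the groups were far apart in every library. Processed copies of these genes are common in the genome, and reads may be split among them. In wild-type cells all 42 rose too (median 0.60), and 22 rose more in the knockout (14.5% of all genes were higher in the interaction), RPS6 among them (0.37 ± 0.06).

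**Figure D3:**
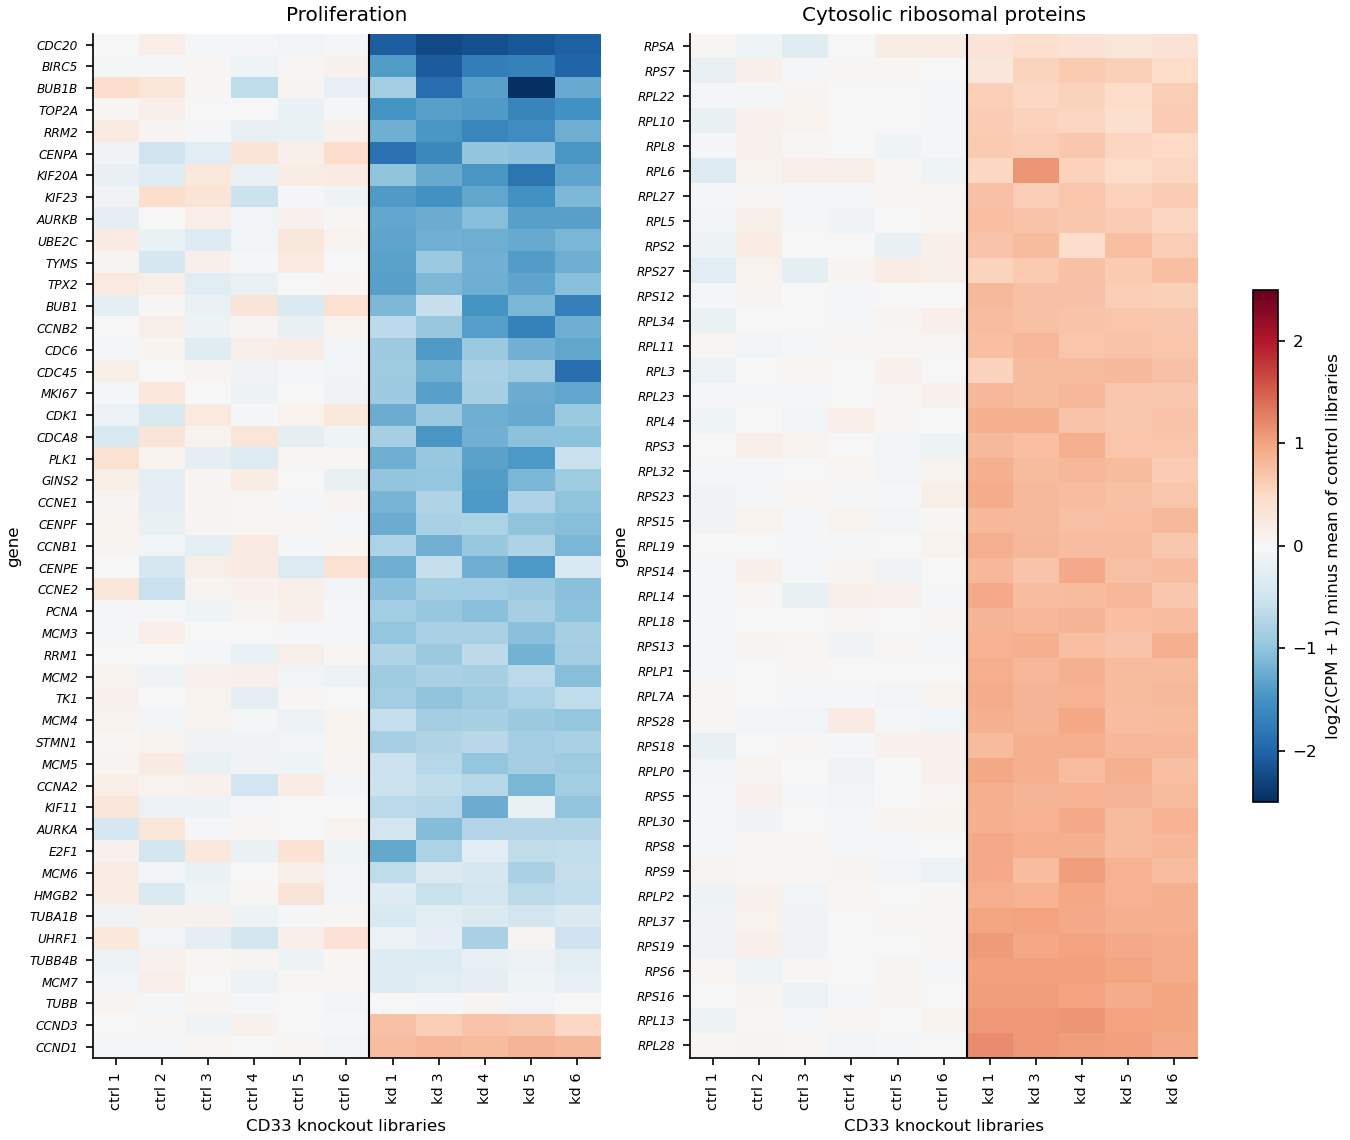
Tested members of the proliferation list (left) and 41 of the cytosolic ribosomal protein list (right) in the 11 CD33 knockout libraries. Colour is log2(CPM + 1) minus the mean of the 6 control libraries, blue below and red above, and the black line parts control from knockdown libraries. Apart from CCND1 and CCND3, which are red, the proliferation genes are blue or near 0 right of the line, and every ribosomal row is red there.

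Among the components of the phagocyte NADPH oxidase, the catalytic subunit changed most. CYBB encodes gp91phox, the membrane subunit that passes electrons to oxygen. It was at 17.6, 19.6 and 26.1 CPM in the control libraries and at 166, 159, 186, 148 and 169 CPM with the knockdown. No knockdown library came near the highest control library, the means were 20.2 ± 3.16 and 166 ± 14.2 CPM, and the ratio of means was 8.21 (3.05 ± 0.08, edgeR adjusted p = 1.34e-57). Of the 16 genes listed, 12 were tested. Of these 7 rose and 1 fell, against 20.5% and 21.6% of all genes, with a median of 0.29. The partner subunit CYBA, p22phox, went from 122 to 174 CPM (0.51 ± 0.15), and the GTPase RAC2 from 442 to 554 CPM (0.33). CYBA was at 0.43 and no longer passed without the 3 libraries highest in IGKC. CYBC1, a chaperone of the complex, rose by 0.22 and lost the call under 8 of the alternatives. NOXA1, an activator of the related oxidase NOX1, fell from 3.04 to 0.732 CPM (-1.99).

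The calcium-binding pair S100A8 and S100A9, which promote oxidase assembly, rose as well. S100A8 was at 175, 184 and 224 CPM and then at 351, 309, 299, 308 and 312 CPM, with knockdown replicate 1 above the other 4 and no overlap between the groups (0.72 ± 0.06), and S100A9 went from 499 to 623 CPM (0.32). NCF4 (0.09), the proton channel HVCN1 (0.27), RAC1 (-0.10) and RAP1A (-0.12) were not called. HVCN1 passed, at 0.30 and 0.31, without control replicate 2 or knockdown replicate 4, and RAC1 passed at -0.18 with library totals only; RAP1A passed in 8 alternatives, at -0.21 to -0.12. The rise of CYBB was larger in the knockout than in the wild type (1.29 ± 0.10), where the gene started higher and went from 173 to 589 CPM; that of S100A8 was smaller (-2.02 ± 0.09, wild type 2.73).

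CYBB lies on the X chromosome and its promoter is a textbook target of PU.1, the ETS factor encoded by SPI1. It is printed with the PU.1 core GAGGAA, searched on both strands, in capitals.
CYBB, chrX:37779809-37780108, plus strand, RefSeq GRCh38.p14: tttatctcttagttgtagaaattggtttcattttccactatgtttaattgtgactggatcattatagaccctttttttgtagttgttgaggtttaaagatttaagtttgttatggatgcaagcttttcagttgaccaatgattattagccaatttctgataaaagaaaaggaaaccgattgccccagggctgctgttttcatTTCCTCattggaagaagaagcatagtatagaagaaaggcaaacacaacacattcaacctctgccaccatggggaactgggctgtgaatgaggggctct
The single match stands on the reverse strand, 48 bases before the start site. Of the 7 tested oxidase genes with a promoter in the table, 5 (71.43%) held this core, against 27.4% of all 9962; the letters are short and common.

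Myeloid identity genes were higher with the knockdown in several cases, but not in all. Of the macrophage and monocyte markers, ITGAX, ITGB2, TYROBP, FCER1G, MMP9 and CHI3L1 were higher in every knockdown library than in any control. ITGAM (57.6 to 61.2 CPM, then 53.8 to 66.5 CPM) and CD68 (35.5 to 58.7 CPM, then 40.9 to 52.8 CPM) overlapped between groups. So did LYZ, CD163 and MRC1, which were low. SPI1 (PU.1), a master regulator of the myeloid lineage, was at 48.4, 58.2 and 60.8 CPM in the controls and 146, 122, 134, 137 and 129 CPM with the knockdown. The groups were far apart (1.23 ± 0.08, edgeR adjusted p = 3.52e-27), and the response did not differ past the threshold from that in wild-type cells (-0.02 ± 0.10, edgeR adjusted p = 0.935). CSF1R, the receptor for M-CSF, was at 114, 123 and 139 CPM and then at 457, 459, 396, 455 and 425 CPM (1.82 ± 0.06), and this rise exceeded the wild-type one by 0.63 ± 0.07. CD14, the co-receptor for lipopolysaccharide, was at 519, 620.2 and 663 CPM and then at 1427, 1276, 1321, 1272 and 1341 CPM (1.12 ± 0.05), a smaller rise than in wild-type cells (-0.51 ± 0.07).

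The macrophage maturation list as a whole split. Of 42 genes, 39 were tested, 13 rose and 11 fell (median 0.11), against 20.5% and 21.6% of all genes. VSIG4, a complement receptor of resident macrophages, was at 8.51, 11.8 and 14.1 CPM and then at 54.3, 53, 48, 52.1 and 51.5 CPM (2.18 ± 0.13). SLC11A1 (NRAMP1), a phagosomal metal transporter, went from 15.8, 19.4 and 20.7 CPM to 57.3, 77.7, 87.5, 83 and 78.1 CPM (2.00 ± 0.11), more than in wild-type cells (1.56 ± 0.15). ID3, an inhibitor of helix-loop-helix factors, fell from 178, 198 and 209.6 CPM to 32.1, 32.9, 37.7, 46.4 and 41.3 CPM (-2.38 ± 0.09). Neither group overlapped the other in these 3 genes. In wild-type cells 28 of the 39 rose and 8 fell (30.2% and 30.4% of all genes). In the interaction 20 members were lower (13.9% of all genes).

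Among 23 tested genes of undifferentiated myeloid cells and granules (35 listed), 9 rose and 2 fell (median 0.38), against 20.5% and 21.6% of all genes. RNASE2, a granule ribonuclease, went from 9.86 to 32.2 CPM (1.69), CLEC11A, a stem cell growth factor, from 202 to 337 CPM (0.74) and the microsomal transferase MGST1 from 27.7 to 49.7 CPM (0.83). GFI1, a repressor in granulocyte progenitors, fell from 210.3 to 73.4 CPM (-1.51), as did the proteoglycan VCAN (24.9 to 10.1 CPM, -1.27). MIR223HG, the host transcript of a myeloid microRNA, was among the largest rises, from 0.266 to 4.40 CPM to 13.5 to 18 CPM (2.89 ± 0.26).

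Inhibitory receptors, many of which carry the ITIMs that SHP-1 docks on, rose more often than they fell. The list also holds Siglecs without an ITIM, among them SIGLEC1, SIGLEC14, SIGLEC15 and SIGLEC16. Of 30 Siglecs and other inhibitory receptors, 19 were tested, 9 rose and 2 fell, against 20.5% and 21.6% of all genes. The median was 0.70. PECAM1, an adhesion receptor with ITIMs, was at 346, 367 and 389 CPM and then at 727, 667, 743, 676 and 728 CPM (0.94 ± 0.05). SIRPA, the receptor for CD47, was at 107, 112 and 122 CPM and then at 222, 213, 199, 216 and 211 CPM (0.91 ± 0.06). All knockdown libraries lay above all controls in both genes. The collagen receptor LAIR1 (44.4 to 87 CPM, 0.98), CD300A (38.5 to 68.3 CPM, 0.83), MILR1 (0.80), PILRA (1.23) and CD300LF (0.70) rose too. The last lost its call without control replicate 5 (0.55) or without the low-count filter (0.71).

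The Siglecs were low apart from CD33. SIGLEC16 (2.83 to 7.26 CPM, 1.34) and SIGLEC11 (1.24 to 3.86 CPM, 1.64) rose, but they are near-identical neighbours and their reads may be split. SIGLEC1 (7.42 to 5.41 CPM), SIGLEC7 (1.04 to 1.60 CPM), SIGLEC9 (2.10 to 2.32 CPM), SIGLEC14 (0.415 to 0.722 CPM) and SIGLEC15 (1.36 to 1.73 CPM) did not pass, nor did LILRB1 (0.49), LILRB2 (1.10) and LILRB3 (0.30). CD22, a Siglec best known from B cells, fell: it was at 4.25, 6.26 and 9.44 CPM in the controls and at 1.48, 1.83, 2.24, 1.03 and 0.818 CPM with the knockdown, without overlap (-2.07 ± 0.34, edgeR adjusted p = 1.67e-07). Its fall was smaller than in wild-type cells (1.18 ± 0.46, wild type -3.25). LILRB4 fell by 0.84 on the log2 scale, a call lost in 7 alternatives; without the 3 libraries highest in IGKC the change was -0.34, without control replicate 2 it was -0.61. The LILR genes are close relatives in 1 cluster.

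The kinases that act on ITIMs and ITAMs did not move together. Of 29 Src, SYK and TEC family members and their partners, 25 were tested, 6 rose and 7 fell (median 0.11). These counts were not far from the shares over all genes, 20.5% and 21.6%. LYN, the Src-family kinase most tied to ITIM phosphorylation, was at 274, 292 and 308 CPM and then at 582, 583, 549, 498 and 582 CPM (0.94 ± 0.05, edgeR adjusted p = 1.26e-32). Control and knockdown libraries did not overlap, and the response did not differ past the threshold from the wild-type one (edgeR adjusted p = 0.956). FGR, another myeloid Src kinase, rose from 109 to 171 CPM (0.65) in the knockout and fell in the wild type (-0.54). PIK3CG, the gamma isoform of PI3-kinase, fell from 38.1 to 16.8 CPM (-1.18). The adaptor LCP2 (SLP-76) fell from 317 to 225 CPM (-0.50) and the tyrosine kinase PTK2B from 297 to 185 CPM (-0.68).

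Phosphatases and adaptors around SHP-1 were tested in all 28 listed genes. Of these 11 rose and 2 fell, against 20.5% and 21.6% of all genes, with a median of 0.17. SH2B3 (LNK), an adaptor that limits cytokine receptor signals, went from 54.9 to 110.5 CPM (1.02), the cytosolic phosphatase PTPN12 from 179.6 to 325 CPM (0.85) and the receptor phosphatase PTPRJ (CD148) from 102 to 182 CPM (0.82). The ubiquitin ligase CBL (-0.32) and the adaptor SHC1 (-0.21) fell; SHC1 missed the call when no low-count filter was used. PTPN11, which encodes the related phosphatase SHP-2, was at 46.8 and 39.4 CPM and was not called (-0.26), and neither was the lipid phosphatase gene INPP5D, SHIP-1 (154 and 147 CPM, -0.06).

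ITAM adaptors were higher. TYROBP (DAP12) was at 329, 337 and 391 CPM and then at 651, 598, 573, 624 and 582 CPM (0.81 ± 0.05), with no overlap, and FCER1G, the common Fc receptor chain, went from 426 to 606 CPM (0.51). TYROBP rose less in wild-type cells (0.29) and FCER1G fell there (-0.38), and both interactions passed (0.51 ± 0.07 and 0.89 ± 0.07). Of 26 genes listed, 17 were tested, 6 rose and 3 fell (median 0.28), against 20.5% and 21.6% of all genes. MS4A7 rose (159.7 to 234 CPM, 0.55). The TYROBP partner TREM2, a lipid receptor, fell slightly, from 211 to 185 CPM (-0.20). LILRA2 (-0.61) fell with a call that was lost in 7 alternatives, and CD300LB fell from 6.24 to 2.84 CPM.

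Of 45 phagocytic and scavenger receptors 37 were tested, 9 rose and 12 fell (median -0.03), against 20.5% and 21.6% of all genes. CD209 (DC-SIGN), a lectin, went from 18.9 to 67.6 CPM (1.86), against 0.35 in wild-type cells, and the integrin beta-2 chain ITGB2 from 4068 to 6366 CPM (0.65). The oxidized-LDL receptor OLR1 fell from 23 to 5.19 CPM (-2.16), the collagen receptor MRC2 from 142 to 68.2 CPM (-1.06) and MFGE8, a bridge to apoptotic cells, from 95.1 to 51.2 CPM (-0.90).

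Lysosomal genes leaned upward: 51 of 55 were tested, 26 rose and 6 fell, against 20.5% and 21.6% of all genes. The median was 0.27. CTSD, an aspartic protease, was at 1207, 1256 and 1371 CPM and then at 2619.7, 2595, 2897, 2616 and 2802 CPM (1.10 ± 0.05), with all knockdown libraries higher. A read-through transcript, AC068580.4, overlaps its exons on the same strand. The cysteine proteases CTSS (243 to 455 CPM, 0.91) and CTSH (117 to 219.7 CPM, 0.91) rose, and CTSL (363 to 265 CPM, -0.46), the sphingomyelinase SMPD1 (-0.77) and the tetraspanin CD63 (-0.30) fell. Members were more often lower (20) than higher (9) in the interaction, against 13.9% and 14.5% of all genes.

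Cytokine and chemokine genes were more often lower than higher with the knockdown in the knockout. Of 47 listed, 31 were tested, 16 fell (21.6% of all genes did) and 5 rose (20.5%), with a median of -0.28. In wild-type cells 18 of the same 31 rose and 7 fell (30.2% and 30.4% of all genes), with a median of 0.44. The interaction was lower in 19 (13.9% of all genes) and higher in 6 (14.5%). CCL22, a macrophage-derived chemokine that draws CCR4-bearing T cells, was at 61.6, 66 and 78.8 CPM and then at 6.42, 8.23, 10.3, 10.8 and 6.54 CPM. All knockdown libraries lay far below all controls (-3.01 ± 0.17, edgeR adjusted p = 2.83e-28). The wild-type change was 0.11, but wild-type cells held only 2.12 and 2.35 CPM, where a fall could hardly be seen. IL23A, the p19 subunit of interleukin-23, was at 268, 286 and 325 CPM and then at 101, 88.7, 104, 111 and 103 CPM (-1.52 ± 0.07); wild-type cells held only 8.22 and 7.62 CPM. IL1RN, the interleukin-1 receptor antagonist, was at 2014, 2089 and 2258 CPM and then at 1197, 1044, 1249, 1086 and 1138 CPM (-0.88 ± 0.05), against a rise of 0.12 in wild-type cells. CXCL1, a neutrophil chemokine, was at 117, 148 and 152 CPM and then at 62.7, 48, 47.6, 50.5 and 47 CPM (-1.48 ± 0.09), with control replicate 2 the lowest control and knockdown replicate 1 the highest knockdown library. In these 4 genes the groups did not overlap.

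The 5 that rose were IL1B, TNF, CCL4, OSM and TNFSF14; the count was 3 with library totals only, without the 3 libraries highest in IGKC, or without control replicate 1, 3 or 6 or knockdown replicate 1. IL1B was at 2999.5, 3363 and 3576 CPM and then at 6689, 6663, 6376, 6353 and 5957 CPM (0.94 ± 0.06), so the agonist rose while its antagonist IL1RN fell in the same libraries. TNF was at 46.4, 57.4 and 68.5 CPM and then at 97.8, 91.9, 87.5, 97.9 and 91.2 CPM (0.68 ± 0.10), a response that did not differ past the threshold from the wild-type one (edgeR adjusted p = 0.711). CCL4 has a near-identical copy, CCL4L2, which fell (-0.51), so neither is certain. CXCL8 (1726 and 1550.0 CPM, -0.16) and CCL20 (2012 and 2031 CPM, 0.01) were not called. Control replicate 2 was the lowest library in both, at 833 and 779 CPM. In CXCL8 the other controls were at 1664 to 2220 CPM, all above the knockdown libraries (1471 to 1616 CPM). The change of CXCL8 without that library was not examined.

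Of 35 NF-kB feedback and target genes 33 were tested, 12 rose and 9 fell (median 0.06), against 20.5% and 21.6% of all genes. GPR84, a fatty acid receptor, rose from 32.5 to 78.9 CPM, the caspase-8 regulator CFLAR from 158 to 242 CPM (0.61) and the survival gene IER3 from 2276 to 3369 CPM (0.57). NFKBIA, the inhibitor of NF-kB, fell from 966 to 712 CPM (-0.44), and the ubiquitin ligases BIRC2 (-0.68) and BIRC3 (-0.77) fell as well. BIRC3 rose in wild-type cells (0.87).

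Genes induced by ERK and AP-1 were mostly lower: 22 of 39 tested (41 listed) fell and 6 rose, against 21.6% and 20.5% of all genes. The median was -0.25. EGR1, an immediate-early zinc finger factor, was at 106, 116 and 148 CPM and then at 58.8, 74.5, 66.9, 61.9 and 61.3 CPM (-0.91 ± 0.09). DUSP2, a nuclear phosphatase of MAP kinases, was at 299, 332 and 339 CPM and then at 146, 134, 114, 128 and 155 CPM (-1.27 ± 0.06). Neither gene overlapped between groups. DUSP5, which acts on ERK, fell from 232 to 153 CPM (-0.59). DUSP6, another ERK phosphatase, rose from 969.9 to 1271 CPM (0.39), as did the AP-1 subunit FOSL1 (5.53 to 14 CPM, 1.36). The rises numbered 3 with library totals only, without control replicate 2 or without the low-count filter. The fall of EGR1 was smaller than in wild-type cells (1.41 ± 0.14). The interaction was higher in 20 of the 39 (14.5% of all genes).

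Of 36 JAK, STAT and IRF genes 33 were tested, 15 rose and 8 fell (median 0.19), against 20.5% and 21.6% of all genes. IRF1, an interferon regulatory factor, was at 53.8, 57.9 and 70.6 CPM and then at 129, 151, 144, 131 and 141 CPM (1.21 ± 0.07), close to the wild-type change (1.15; interaction edgeR adjusted p = 0.708). The interferon-gamma receptor chain IFNGR2 went from 236 to 426 CPM (0.85) and the repressor BCL6 from 228 to 345 CPM (0.60). STAT4 fell from 9.28 to 2.13 CPM (-2.12), and IRF7, which amplifies the type I response, from 33.7 to 19 CPM (-0.82).

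Type I interferon response genes fell in part. Of 50 names listed, 48 were tested, 19 fell and 2 rose, against 21.6% and 20.5% of all genes. The median was -0.20, and 27 were not called. In wild-type cells all 48 fell (30.4% of all genes did), with a median of -1.83. The interaction was higher in 47 of 48 (14.5% of all genes), the exception being BST2. IFI27, a mitochondrial interferon-induced protein, was at 30.3, 35.3 and 44 CPM in the controls and 9.88, 4.57, 13, 11.9 and 13.1 CPM with the knockdown, without overlap (-1.76 ± 0.16, edgeR adjusted p = 2.95e-15). Wild-type cells started at 135 CPM and ended at 4.02 CPM. IFI6, an inhibitor of viral replication, was at 1062, 1217 and 1499 CPM and then at 491, 434, 551, 509 and 539 CPM (-1.30 ± 0.10, edgeR adjusted p = 1.50e-09). USP18, which removes ISG15 and restrains the receptor, fell from 19.5 to 5.56 CPM (-1.77), and XAF1, a pro-apoptotic gene, was at 77.4, 91.1 and 123 CPM and then at 50.4, 57.1, 56.1, 56.7 and 65.4 CPM (-0.73 ± 0.08). BST2 (tetherin) was at 389, 398 and 415 CPM and then at 184, 136, 232, 188 and 211 CPM (-1.07 ± 0.09), with an interaction adjusted p of 0.995 by edgeR.

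The members that rose were TNFSF10 (TRAIL), from 21.6 to 43.1 CPM (1.01), and LGALS3BP (0.23), whose call was lost in 12 alternatives. With library totals only, 24 members fell; without the 3 libraries highest in IGKC, 12 did.

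**Figure D4:**
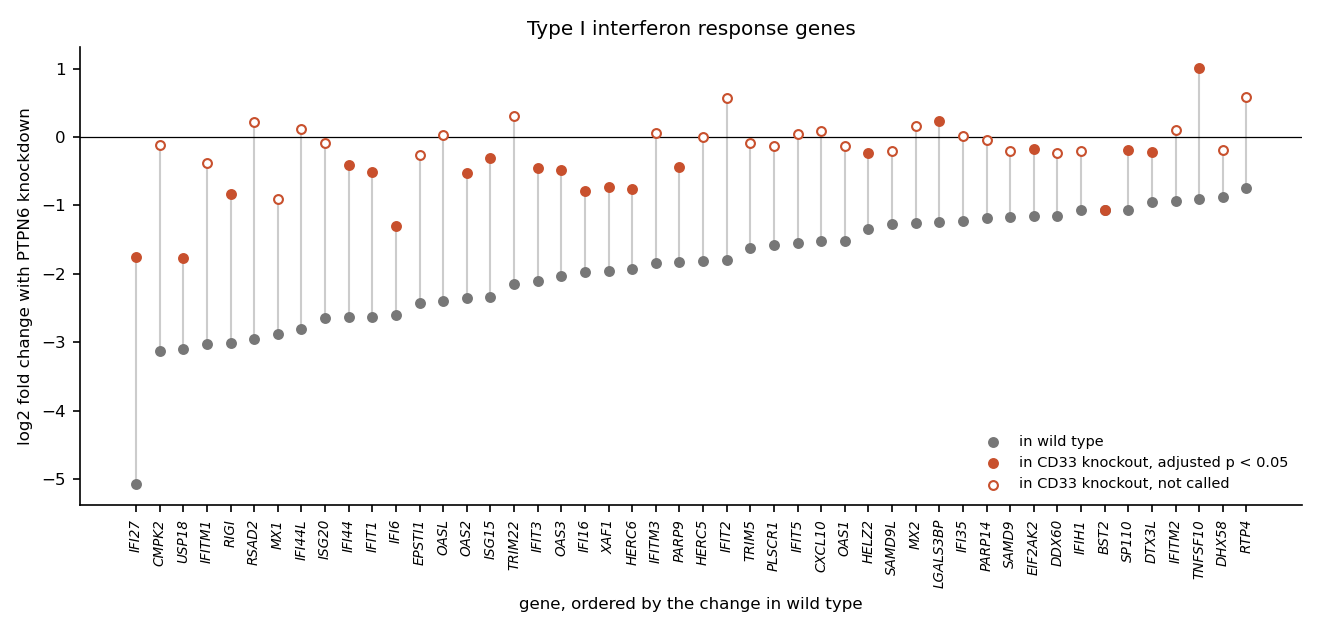
Log2 fold change with PTPN6 knockdown of the 48 tested type I interferon response genes, ordered by the change in wild-type cells (grey). Red points are the change in CD33 knockout cells, filled where the edgeR adjusted p was under 0.05, and a line joins both values of a gene. Every grey point is below 0, and 47 of the 48 red points are above their grey partner, with BST2 at the same height.

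The promoters of IFI27 and IFI6 are printed because IFI27 had the smallest adjusted p of the list and IFI6 the highest CPM of the 4 members that fell at least 2-fold. Capitals mark the core of the interferon-stimulated response element (GAAA, any 2 bases and GAAA again, on either strand), where interferon-activated factors bind.
IFI27, chr14:94110486-94110785, plus strand, RefSeq GRCh38.p14: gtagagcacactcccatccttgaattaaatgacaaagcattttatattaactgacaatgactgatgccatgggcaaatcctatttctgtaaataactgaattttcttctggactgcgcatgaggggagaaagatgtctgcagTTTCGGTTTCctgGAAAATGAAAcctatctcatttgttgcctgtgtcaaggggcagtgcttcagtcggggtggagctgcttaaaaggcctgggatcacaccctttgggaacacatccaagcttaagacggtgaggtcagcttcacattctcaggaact
IFI6, chr1:27672143-27672442, minus strand, RefSeq GRCh38.p14: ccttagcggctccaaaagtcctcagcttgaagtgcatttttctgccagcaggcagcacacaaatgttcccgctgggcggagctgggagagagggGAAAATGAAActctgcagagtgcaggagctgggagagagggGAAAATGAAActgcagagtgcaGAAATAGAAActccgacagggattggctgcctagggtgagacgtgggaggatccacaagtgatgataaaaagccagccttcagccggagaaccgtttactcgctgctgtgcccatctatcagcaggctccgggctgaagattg
IFI27 held 2 matches and IFI6 held 3. Of the 40 tested members with a promoter in the table, 28 (70.0%) held this core, against 2.91% of the 9962 promoters of tested genes. As the list was drawn up from known interferon targets, this share describes the list and not the knockdown.

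Of 23 MHC class I genes 20 were tested, 8 fell and 3 rose (median -0.08), against 21.6% and 20.5% of all genes. TAP1, the peptide transporter, was at 126, 144 and 158 CPM and then at 53.3, 43.4, 57.5, 48.5 and 53.2 CPM (-1.50 ± 0.08, edgeR adjusted p = 7.12e-34). B2M, the light chain, fell from 7084 ± 742 to 4958 ± 321 CPM (-0.51). The groups did not overlap in either gene. The stress ligands MICA (16.7 to 30.6 CPM, 0.89) and MICB (18 to 34 CPM, 0.94) rose, as did the peptidase ERAP2 (0.61), whose call was lost without control replicate 1 (0.49), knockdown replicate 6 (0.49) or the 3 libraries highest in IGKC (0.58). HLA genes resemble each other closely, and their reads may be misassigned.

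MHC class II genes, which present antigen to helper T cells, were lower. Of 17 listed, 14 were tested, 9 fell and 1 rose, against 21.6% and 20.5% of all genes. The median was -0.91. HLA-DRB1 was at 15.4, 20.3 and 27.9 CPM and then at 12.3, 13.3, 10.3, 6.19 and 8.59 CPM (-0.99 ± 0.17). CD74, the invariant chain, was at 125, 142 and 170.4 CPM and then at 97.8, 112, 118, 119 and 107 CPM (-0.40 ± 0.07), and HLA-DQB1 went from 9.01 to 3.77 CPM (-1.23). Neither HLA-DRB1 nor CD74 overlapped between groups. HLA-DRA was at 28.4, 31.8 and 77.4 CPM and then at 14.3, 28.3, 15.7, 14.9 and 11 CPM (-1.24 ± 0.38, edgeR adjusted p = 0.0131). Control replicates 3 (77.4 CPM) and 2 (40.8 CPM) were the highest controls and replicate 3 the highest knockdown library, and these are the 3 libraries highest in IGKC. The highest knockdown value, 28.3 CPM, stood beside the lowest control value, 28.4 CPM. Without the 3 libraries highest in IGKC, 6 of the list fell, with HLA-DRB1 at -0.96, HLA-DQB1 at -1.34 and CD74 at -0.39. The count was also 6 with DESeq2, and 6 to 9 when any 1 library was left out. The costimulator CD86 rose (8.79 to 13.8 CPM, 0.61). In wild-type cells CD86 and CD74 rose and HLA-DRB1 and HLA-DQB1 fell (30.2% of all genes rose there and 30.4% fell). The interaction was lower in 4 of the 14 members (13.9% of all genes): CD86, HLA-DPB1, HLA-DRB1 (-0.73 ± 0.18) and CD74 (-0.53 ± 0.09).

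Cholesterol and fatty acid synthesis genes rose in 15 and fell in 5 of 33 tested (36 listed, median 0.16), against 20.5% and 21.6% of all genes. The sterol oxidase MSMO1 was at 27.5, 36.1 and 41.5 CPM and then at 145, 153, 140.0, 113 and 135 CPM (1.95 ± 0.09). Control and knockdown libraries were far apart, and the wild-type change was 1.78. PMVK (-0.45), SQLE (-0.20) and TM7SF2 (-0.83), enzymes of the same pathway, were among the 5 that fell, with the sterol carrier STARD4 (-0.39).

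Of 35 lipid handling genes 33 were tested, 7 rose and 11 fell (median 0.00), against 20.5% and 21.6% of all genes. LPL, the secreted lipoprotein lipase, was at 432, 444 and 477 CPM and then at 168, 151, 165, 145 and 157 CPM (-1.52 ± 0.06), and FABP4, a fatty acid chaperone induced by PPAR gamma, was at 287, 354 and 368 CPM and then at 112, 103, 110.0, 89.2 and 116 CPM (-1.67 ± 0.07). Both fell without overlap, while the wild-type changes were -0.02 and -0.06. The lipase MGLL fell from 264 to 154 CPM (-0.78). ABCA1, which exports cholesterol, rose from 64.2 to 125 CPM (0.96), and so did the LXR beta gene NR1H2 (0.69) and the acyl-CoA ligase ACSL1 (0.41).

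Of 30 NRF2 targets and antioxidant genes 28 were tested, 15 rose and 5 fell (median 0.25), against 20.5% and 21.6% of all genes. With library totals only, 9 fell. GPX1, a peroxidase, went from 272 to 532 CPM (0.97), and the pentose phosphate enzymes TALDO1 (273 to 502 CPM, 0.88) and PGD (207 to 363 CPM, 0.81) rose. The classical NRF2 targets NQO1 (177 to 94.7 CPM, -0.90) and GCLM (276 to 192 CPM, -0.53) fell, with PRDX6 (-0.67), AKR1B1 (-0.40) and SOD1 (-0.25). Iron and metal genes rose in 6 and fell in 9 of 24 tested (30 listed, median -0.02), against the same 20.5% and 21.6%. Besides SLC11A1, its relative SLC11A2 (DMT1) rose from 56.5 to 120.1 CPM (1.08) and ferritin light chain FTL from 2786 to 3544 CPM (0.35). The metallothionein MT2A (470.2 to 253 CPM, -0.89), the mitochondrial iron importer SLC25A37 (-0.77) and the zinc exporter SLC30A1 (-0.53) fell.

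Of 40 glycolysis and hypoxia genes 35 were tested, 19 rose and 5 fell (median 0.28), against 20.5% and 21.6% of all genes. NDRG1, induced by hypoxia, was at 589, 656 and 702 CPM and then at 1041, 1018, 1079.9, 1028 and 1086 CPM (0.69 ± 0.05), the lactate exporter SLC16A3 went from 397 to 629.6 CPM (0.66) and the mitophagy receptor BNIP3L from 78.1 to 145 CPM (0.89). VEGFA, the growth factor of blood vessels, fell from 313 to 163 CPM (-0.95), as did P4HA2 (-0.47), DDIT4 (-0.36), SLC16A1 (-0.21) and HIF1A (-0.19). In the interaction 22 of the 35 were lower (13.9% of all genes), NDRG1 among them (wild type 1.49).

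Respiratory chain genes showed small changes in both directions in the knockout. Of 15 mitochondrially encoded transcripts, 3 rose and 1 fell (median -0.02): MT-ATP6 rose (0.29), while the calls of MT-CO1 (0.18), MT-ND4 (0.12) and MT-RNR1 (-0.13) were each lost in 11 or more alternatives. In wild-type cells all 15 rose (30.2% of all genes did), and all 15 were lower in the interaction (13.9% of all genes). Of 40 nuclear subunit genes 8 rose and 9 fell (median -0.03), near the shares over all genes (20.5% and 21.6%). With library totals only, 16 fell. COX7C (0.38), UQCRC1 (0.43) and CYC1 (0.37) of the cytochrome complexes rose, and NDUFA4 (-0.51) and the ATP synthase subunit ATP5MC3 (-0.29) fell.

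Heat shock chaperones fell in 8 and rose in 4 of 22 tested (23 listed, median -0.16), against 21.6% and 20.5% of all genes. HSPD1, the mitochondrial chaperonin, was at 255, 273 and 284 CPM and then at 132, 129.8, 139, 123 and 119 CPM (-1.07 ± 0.06), and HSP90AA1 fell from 2036 to 1384 CPM (-0.56) and HSPH1 from 553 to 380.3 CPM (-0.54). DNAJB6 rose (162 to 249 CPM, 0.62), with HSF1 (0.17), HSPA1B (0.30), which has a near-identical copy in HSPA1A, and HSPB1 (0.14); HSPB1 lost its call with library totals only and without control replicate 6 or knockdown replicate 3. Stress genes of the unfolded protein and integrated responses rose in 9 and fell in 8 of 33 tested (34 listed, median 0.02). These counts were not far from the shares over all genes, 20.5% and 21.6%. In this list 15 fell with library totals only, and 4 with no low-count filter or without knockdown replicate 5. GDF15, a stress cytokine, was at 1129, 1219.7 and 1331 CPM and then at 1936, 1719.9, 2249, 1893 and 2034 CPM (0.67 ± 0.05; wild type 0.04). PPP1R15A (163 to 251 CPM, 0.62) and ATF4 (197 to 288 CPM, 0.55) rose, and the amino acid transporter SLC7A5 (-0.64) and the chaperones CALR (-0.25) and HSP90B1 (-0.24) fell.

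Matrix, adhesion and protease genes fell in 19 and rose in 11 of 44 tested (47 listed, median -0.25), against 21.6% and 20.5% of all genes. MMP7 (matrilysin) was at 567, 581 and 649 CPM and then at 161, 177, 158, 155 and 157 CPM (-1.88 ± 0.06), with knockdown replicate 3 highest of its group. TIMP3, an inhibitor of metalloproteinases, was at 204, 252 and 262 CPM and then at 65.7, 68.1, 71.4, 70.6 and 82.6 CPM (-1.77 ± 0.07; wild type 0.11), and N-cadherin, CDH2, fell from 63.9 to 25.7 CPM (-1.31). MMP9, gelatinase B, was at 907, 949 and 967 CPM and then at 1815, 1597, 1755, 1692 and 1783 CPM (0.87 ± 0.05), a smaller rise than in the wild type (-1.40 ± 0.07). The integrin chain ITGA4 (28.8 to 57.7 CPM, 1.00) and the laminin chain LAMC1 (0.50) rose. Actin and motility genes were tested in all 37 cases. Of these 16 rose and 6 fell (median 0.11), against 20.5% and 21.6% of all genes. With library totals only, 11 rose and 10 fell. The unconventional myosin MYO1F (222 to 394 CPM, 0.83), vimentin, VIM (369.8 to 571 CPM, 0.62), and the actin bundler LCP1 (0.40) rose, and ARHGAP15 (-0.57), ARHGDIB (-0.34) and ACTG1 (-0.19) fell.

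Genes at Alzheimer's disease risk loci (CD33 lies at such a locus) rose in 16 and fell in 13 of 43 tested (55 listed, median 0.02). The shares over all genes were 20.5% and 21.6%. With library totals only, 14 of the list rose and 17 fell. SPI1 and ADAM17, a sheddase (533 to 792 CPM, 0.57), rose. SORL1, a sorting receptor for the amyloid precursor (13.1 to 3.48 CPM, -1.88), CLU, an extracellular chaperone (43.3 to 16.7 CPM, -1.35), and HLA-DRB1 fell.

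Many of the largest changes fell on genes with few counts in 1 group, though MGP, CYBB and CCDC30 held more in both groups. MGP, an inhibitor of calcification, had the highest control CPM of the 12 largest falls, at 608, 625 and 655 CPM in the controls and 58.3, 66.7, 63.3, 71.1 and 63.8 CPM with the knockdown (-3.28 ± 0.06, edgeR adjusted p = 1.35e-73). DMP1, a secreted phosphoprotein of bone, was at 27, 32.8 and 40.5 CPM and then at 4.45, 1.37, 2.69, 1.03 and 1.64 CPM (-3.89 ± 0.22). PADI2, a peptidylarginine deiminase, was at 13.5, 17.8 and 20.2 CPM and then at 0.494, 1.83, 1.80, 0.515 and 1.64 CPM (-3.74 ± 0.33), and the cytokine IL11 was at 7.92, 11.9 and 16.8 CPM and then at 0, 1.37, 0.449, 0.515 and 2.04 CPM (-3.67 ± 0.41). In each, the highest knockdown library was below the lowest control. The muscle genes NRAP (33.9 to 2.72 CPM, -3.64) and TTN (20.7 to 1.96 CPM, -3.40), the scaffold TAMALIN (33.3 to 3.47 CPM, -3.24), the corepressor RUNX1T1 (-2.94), the ion channel PIEZO2 (-2.90), MEPE, another bone phosphoprotein (-2.86), and CCL22 were also among the 12 largest falls.

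IFITM10 led the rises, from 0.266, 0.908 and 1.47 CPM to 12.8, 9.60, 10.3, 12.9 and 8.59 CPM (3.67 ± 0.38); its exons overlap the read-through AC068580.4, as do those of its neighbour CTSD. ROR2, a receptor for WNT5A, was at 0.978, 2.21 and 2.75 CPM and then at 29.1, 28.3, 19.3, 19.6 and 21.7 CPM (3.43 ± 0.25), and LRRC25, a myeloid membrane protein, was at 0.450, 1.32 and 2.14 CPM and then at 12.3, 12.8, 12.1, 13.4 and 11.4 CPM (3.32 ± 0.32). None of the 3 overlapped between groups. CYBB came next. CCDC30 rose from 23.5 ± 3.24 to 159.5 ± 13 CPM (2.76 ± 0.09), but its exons overlap those of PPCS on the same strand and the counting rule for shared exons is not given in the sources used here. The natriuretic peptide gene NPPC (1.59 to 12.5 CPM, 2.93), FHAD1 (2.89), the lysophosphatidic acid receptor LPAR4 (2.64), the coronin CORO2A (2.55), FGFBP2 (2.44; it overlaps PROM1) and the stress-induced factor NUPR1 (1.96, 2.63 and 4.84 CPM to 10.4, 14.2, 18.4, 13.9 and 14.3 CPM, 2.32) followed. In absolute terms the losses were led by CAP1, an actin regulator (12119.7 to 9654 CPM, -0.33; it overlaps PPT1 on the other strand, and whether strand was used in counting is not given in the sources used here), with B2M, RGS16, a brake on G-protein signals (2851 to 1299 CPM, -1.13), IGFBP3 (1715 to 784 CPM, -1.13), IL1RN and IFI6.

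Markers of other cell types were detected in part. At 5 CPM or more in every knockout library were 3 lymphoid, 7 fibroblast and endothelial and 3 epithelial and HEK-293 markers. The erythroid and megakaryocytic list and the dendritic cell and neutrophil list held 1 each. TRAC, of T cells, was at 98.6 to 111 CPM in the controls and 88.7 to 121 CPM with the knockdown. COL1A1, of fibroblasts, was at 9.44 to 18.5 CPM and 8.59 to 42.5 CPM. Of 21 lymphoid markers 7 were tested; PRF1, IL7R and GNLY fell, and the summed level of the list was 678.2 to 758.9 CPM in the controls and 371.9 to 423.7 CPM with the knockdown, most of it GNLY; IL7R went from 55.8 to 23.6 CPM (-1.24) and PRF1 from 2.44 to 0.460 CPM. GNLY (granulysin) was at 509, 552 and 587 CPM and then at 252, 266, 271, 273 and 260.1 CPM (-1.06 ± 0.05). Of 16 dendritic cell and neutrophil markers 5 were tested and the sum was 48.66 to 65.57 CPM in the controls and 12.89 to 16.45 CPM with the knockdown, most of it CCR7, a homing receptor, at 47.9, 49.9 and 62.5 CPM and then at 11.4, 10.1, 8.98, 8.76 and 7.36 CPM (-2.48 ± 0.17); CD1C rose (0.854 to 3.17 CPM), and 6 of the list had no count in any knockout library. Of 18 fibroblast and endothelial markers 12 were tested, 3 rose (PECAM1, ENG 0.59 and EGFL7 0.52) and 2 fell (TIE1 -1.41 and PDGFRA -0.67). Their sum of 562.4 to 625.3 CPM in the controls and 900.5 to 971.5 CPM with the knockdown was mostly PECAM1, which is also on myeloid cells. The epithelial and HEK-293 list summed to 121.5 to 163.3 CPM and 119.3 to 142.8 CPM; of 6 tested, CLDN7 (0.76) and CDH1 (0.48, a call lost in 4 alternatives) rose and CDH2 and PAX8 (-0.82) fell. The erythroid and megakaryocytic list summed to 28.42 to 57.21 CPM and 16.45 to 38.53 CPM, where PPBP fell (17.4 to 3.25 CPM) and 5 of 16 had no count. Their part in the results was not tested.

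The knockdown responses of the knockout and the wild type share no library and could be set side by side. Of the 5512 genes called in the knockout, 1876 rose and 1953 fell in both lines, together 69.5% of the calls in the knockout and 48.2% of the 7941 (60.6%) calls in the wild type, where 30.2% of the tested genes rose and 30.4% fell. The wild-type libraries held 3318001 to 6269304 counts against 2024032 to 3749258 in the knockout, and the part of depth in the larger number of calls was not tested. Another 402 genes (7.29%) were called in opposite directions. The interaction test called 3717 genes (28.4%), among them 2147 of the 5512. Across the 13098 genes, which are not independent replicates, the log2 changes of the 2 lines had a Pearson r of 0.592 and a Spearman rho of 0.595, as a description.

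FN1, fibronectin, was 1 of the genes with opposite responses: it was at 159, 216 and 229.8 CPM and then at 129.9, 108, 112, 107 and 121 CPM in the knockout (-0.84 ± 0.08), while in wild-type cells it rose from 31.4 to 279 CPM, a difference of -3.99 ± 0.11 (edgeR adjusted p = 1.74e-37). CDCP1, a Src-binding membrane protein, was at 31.3, 39.5 and 42.2 CPM and then at 19.3, 21.5, 22, 23.2 and 17.2 CPM (-0.89 ± 0.12; wild type 4.04). PDGFA, a growth factor, rose in the knockout from 489.8, 506 and 545 CPM to 645, 675, 657, 639 and 658 CPM (0.36 ± 0.05) and fell in the wild type (-1.89). GNLY, MMP1 and PNOC fell in both lines but less in the knockout: GNLY differed by 4.22 ± 0.10, MMP1, a collagenase, was at 322, 361 and 386 CPM and then at 244, 256, 231, 204 and 219.6 CPM (-0.63 ± 0.06; wild type -4.36), and the opioid peptide precursor PNOC went from 197 to 56.8 CPM (-1.80; wild type -4.38). CYP1B1, a target of the aryl hydrocarbon receptor, rose in both, from 34.3, 41.2 and 44.1 CPM to 94.8, 85.5, 84.8, 80.4 and 92.8 CPM in the knockout (1.10 ± 0.09) and by 4.44 in the wild type. BMP8B (-0.65; wild type -3.13) and LMO4 (-0.22; wild type -2.03) also fell less, as did NREP (-0.15; wild type -2.15), whose call in the knockout was lost in 4 alternatives. The gene of carboxypeptidase M, a membrane enzyme of macrophages, fell from 520.1 to 387 CPM in the knockout (-0.43) and rose in the wild type (1.24).

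**Figure D5:**
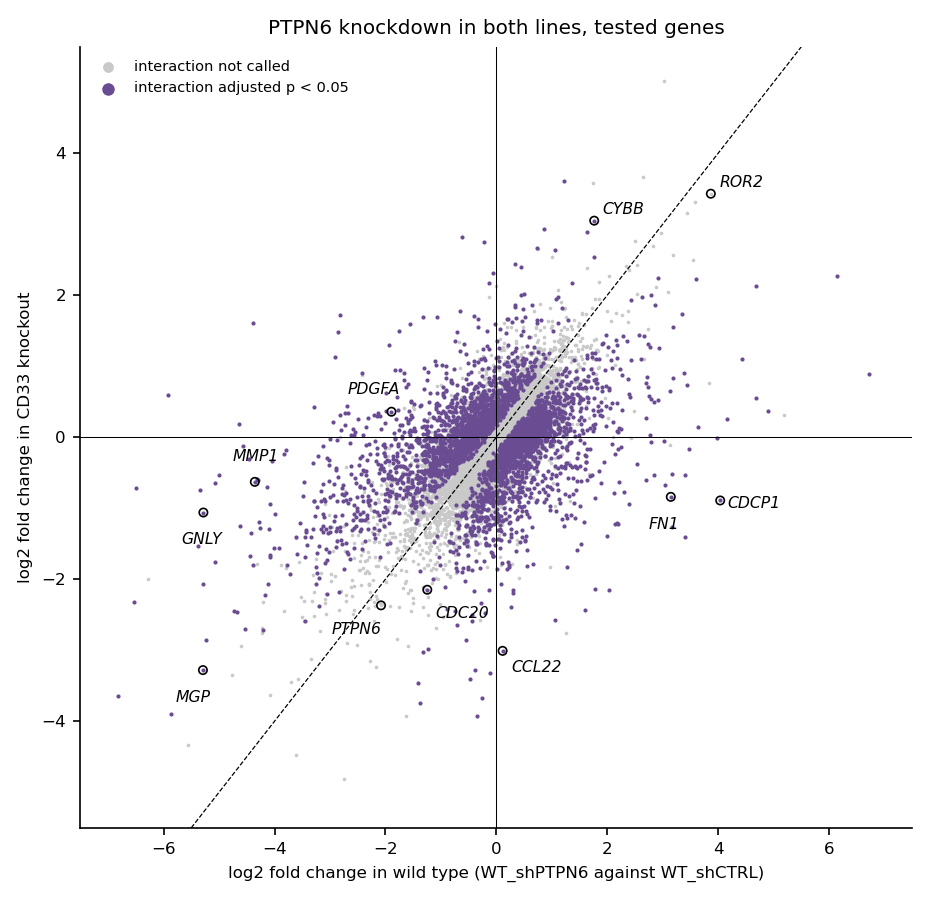
Log2 fold change with PTPN6 knockdown in CD33 knockout cells (vertical) against that in wild-type cells (horizontal) for the 13098 tested genes; purple points have an interaction edgeR adjusted p under 0.05 and the dashed line marks equal changes. PTPN6 and ROR2 lie near the line, CCL22 and CDC20 below it, MGP and GNLY above it, and FN1, CDCP1 and PDGFA in the quadrants of opposite sign.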

How the data were processed

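Polyadenylated RNA was read at its 3′ end by QuantSeq in 23 libraries of THP1 macrophages. The authors deposited raw counts per gene, made with bcl2fastq, STAR 2.7.3a and featureCounts (Subread 2.0.0) on hg38, per the submitters' processing notes, which also list R 3.6.1 and DESeq2 1.26.0; the annotation release and the strand setting are not given in the sources used here. Of 60617 identifiers 99.41% had a symbol and 13098 genes passed edgeR's filterByExpr. Counts were fitted with edgeR 4.0.16 (R 4.3.3): TMM scaling, 1 coefficient for each of the 4 groups, which share 1 dispersion estimate, robust quasi-likelihood tests and Benjamini-Hochberg adjustment over all genes, called at 0.05. The scripts were tested on simulated data. CPM are counts per 1000000 of a library's TMM-scaled total over tested genes. Depth was 2024032 to 3749258 counts in the knockout libraries and 3318001 to 6269304 in the wild-type ones, so low genes carry more counting error. No pair of libraries within either knockout group was identical.

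Both targets were named, with the 12 largest rises and falls (called, mean of at least 5 CPM, groups not overlapping), for each list the 3 called members with the smallest adjusted p in either direction at 5 CPM or more, the 6 largest gains and losses in CPM, the 8 smallest interaction adjusted p in each direction, and all tested inhibitory receptors and oxidase genes. A few genes that this rule named are not reported here. Genes that complete a count of 5 or fewer or mark the ends of a range, and BST2, HLA-DRA, VSIG4, IGKC, VGF, CXCL8, CCL20, PTPN11, INPP5D, MKI67 and CDK1, were chosen after their values were seen. ITGAX, ITGAM, CD68, CHI3L1, TRAC and COL1A1 were chosen in the same way. The comparison and the lists were chosen with earlier results of these data known. Of 1156 list names 1152 matched. Promoters came from RefSeq (9962 of the tested genes matched). Alternatives were DESeq2 1.42.0, its size factors, library totals, no filter, a stricter filter, the knockout groups alone, a replicate block and each library left out. Leaving out the 3 libraries highest in IGKC was chosen after seeing the data.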

Additional observations from a re-analysis of the deposited data

Results flagged for a closer look

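Of 148 groups of library values examined for a sample far from the rest, 13 held such a sample. The rule flags about 1 in 20 by chance. The count cannot be set against that share, because VGF, CCL20 and HLA-DRA, flagged below, were chosen after their values were seen. Control replicate 5 had 3749258 counts against 2048161 to 2331569 in the other controls. Control replicate 2 was far from its group in 5 genes: CDC20 at 532 CPM (others 454 to 471), CXCL1 at 117 CPM (139 to 152), TIMP3 at 204 CPM (243 to 262), VGF at 90.8 CPM (3.85 to 10.6) and CCL20 at 779 CPM (2000 to 2566). Control replicate 3 was high in CYBB, at 26.1 CPM (17.6 to 20.6), and in HLA-DRA, at 77.4 CPM (28.4 to 40.8), and control replicate 6 in CCR7, at 62.5 CPM (47.9 to 52.2). With the knockdown, replicate 1 was high in S100A8, at 351 CPM (299 to 312), and in CXCL1, at 62.7 CPM (47 to 50.5). Replicate 3 was high in HLA-DRA, at 28.3 CPM (11 to 15.7), and in MMP7, at 177 CPM (155 to 161).

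For 6 of the genes shown by library, the knockdown was called in opposite directions in the 2 lines and the interaction passed with edgeR. The difference, knockout minus wild type, was -0.996 for IL1RN, the interleukin-1 receptor antagonist, from changes of -0.88 and 0.12. It was -1.92 for CXCL1 (-1.48 and 0.44), -0.53 for CD74 (-0.40 and 0.13) and -3.99 for FN1 (-0.84 and 3.15). CXCL1 was low in wild-type cells, at means of 4.66 CPM without and 6.09 CPM with the knockdown. CDCP1 differed by -4.93 (-0.89 and 4.04), and PDGFA by 2.25 (0.36 and -1.89), the single one of the 6 that rose in the knockout.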

How the results depend on the processing

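With only the 2 knockout groups in the fit, the rises of at least 2-fold numbered 233 in place of 352; the cause was not tested. SIGLEC9, not called with any library left out, was 0.18 with all libraries, -0.22 without CD33KO_shPTPN6 replicate 3 (edgeR adjusted p = 0.751) and up to 0.53 without CD33KO_shCTRL replicate 2. Replicate numbers did not pair the libraries: deviations of same-numbered knockout libraries correlated at 0.0053 to 0.0315 over 9261 genes and 1 of 5 knockdown libraries correlated best with its own number. The replicate block gave 2630 higher and 2770 lower genes, 341 and 783 by at least 2-fold, 1862 and 1764 in the interaction, and PTPN6 at -2.38. Leaving out 1 library at a time gave 2508 to 2601 higher and 2615 to 2777 lower genes, 343 to 364 and 781 to 839 by at least 2-fold, 1744 to 1851 and 1698 to 1876 in the interaction, and PTPN6 at -2.58 to -2.26. DESeq2 called 5409 genes, 5387 of them shared with edgeR's 5512, and 4824 passed without the 3 libraries highest in IGKC. Of 233 named genes besides PTPN6, 213 kept their direction and side of the threshold in every setting that gave a value, which was 17 to 19 settings for each gene; of 893 list counts under alternatives, 16 moved beyond 1.5 times and are given beside the lists. Genes under about 5 CPM rest on few counts per library, and smaller changes there could not be detected at this depth.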

Other observations

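Gene families were counted by the start of their symbols, a choice made after the values were seen, and several of their members are also in the lists above. Over all tested genes, 20.5% rose and 21.6% fell in the knockout comparison. The wider set of cytosolic ribosomal protein genes held 82 tested members, of which 73 rose and 1 fell (median 0.78), and 90 of their pseudogenes held 44 rises and 2 falls (median 0.76). Host genes of small nucleolar RNAs (SNHG), whose transcripts share the 5′ terminal oligopyrimidine type with ribosomal protein genes, rose in 13 and fell in 1 of 22 (median 0.50). Mitochondrial ribosomal protein genes did not share this: 10 rose and 20 fell of 75 (median 0.06). Translation initiation factors rose in 18 and fell in 10 of 55 (median 0.10).

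Division machinery genes, several of which are also in the proliferation list, were lower in most called members. Among kinesins, the motors of the spindle and of transport, 14 fell and 2 rose of 29 (median -0.71), among centromere proteins 13 fell and 1 rose of 23 (median -0.44), and of 10 MCM genes, which serve the replicative helicase, 8 fell and 0 rose by edgeR (median -0.73). Protein quality control families also held more falls: 6 of 7 subunits of the CCT chaperonin (median -0.22) and 14 of 39 proteasome subunits, where 3 rose (median -0.11). TNF receptor family genes fell in 8 and rose in 4 of 15 (median -0.37) and SR splicing factors fell in 6 of 11 (median -0.17). Subunits of the vacuolar ATPase, which acidifies lysosomes, rose in 5 and fell in 3 of 18 (median -0.01), beside the 26 rises in the lysosomal list.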
